A study of Phanerodontia chrysosporium with 18 samples.

Results

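The white-rot fungus Phanerochaete chrysosporium carries 6 gene models that the deposited table curates as oxalate decarboxylase, and these 6 of 13602 models are described here. They were chosen by their protein numbers, 2907675, 2969988, 2917574, 3003453, 132024 and 2967599, and they are all the models with that curated function. Strain RP-78 was grown on thin sections of spruce sapwood (Picea glauca) set in agar with nitrogen and mineral salts but no carbon source, so wood was the carbon supply in both groups. Poly-A RNA was sequenced at 40 h and at 96 h after inoculation, from 3 samples of 20 pooled sections at each time. No other genotype or treatment was included, so time after inoculation is the factor compared. Every sample gave 1 library, sequenced in 3 lanes, and the lanes were averaged so that n = 3 libraries at each time. The unit is RPKM, in which reads are divided by gene length and by library total, so that levels of different genes can be compared. RPKM is a share of a library's reads, so a change in transcript per cell and a change in which cells make up the colony cannot be told apart. All 6 models passed the filter for testing, at least 1 RPKM in at least 3 libraries, as did 11725 models in all.

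Oxalate decarboxylases are manganese enzymes of the cupin fold that split oxalate into formate and carbon dioxide. White-rot fungi secrete oxalate while they grow on wood. It chelates the Mn(III) made by manganese peroxidase, and it can become toxic or acidify the surroundings when it accumulates. Formate dehydrogenase then oxidizes the formate to carbon dioxide and yields NADH, so oxalate decarboxylase links extracellular oxalate to formate metabolism in the cell.

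By the annotation in the table the 6 proteins fall into 3 with the Pfam domain Cupin_1 and 3 with Cupin_2. Model 2969988 had a pair of Cupin_1 domains, at residues 128 to 276 and 316 to 460, and 3003453 had a pair at 150 to 302 and 319 to 461. Model 2917574 had 1 Cupin_1 domain, at residues 109 to 252. Model 132024 had Cupin_2 domains at residues 83 to 162 and 272 to 350, while 2907675 and 2967599 had 1 each, at 319 to 394 and 367 to 442. A signal peptide, the mark of entry into the secretory pathway, was given a probability of 1 for 4 models (2907675, 2969988, 2917574 and 2967599). None was listed for 132024 and 3003453. Paralogs can share reads, and the rule by which such reads were counted was not given in the sources used here. Single paralogs' levels are uncertain to that extent.

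The main oxalate decarboxylase transcript differed between the times. At 40 h it was 2969988, a Cupin_1 model with a signal peptide, and at 96 h it was 2907675, a Cupin_2 model with a signal peptide. Model 2969988 stood at 209, 149 and 213 RPKM in the 40 h libraries 1, 2 and 3, and at 12.0, 11.2 and 10.2 RPKM in the 96 h libraries 1, 2 and 3. The groups lay far apart, and library 2 was the low one at 40 h. The mean fell from 190.3 ± 35.7 to 11.1 ± 0.892 RPKM (SD, n = 3), 17.1-fold lower at 96 h. On the log2(RPKM + 1) scale the change was -3.97 (SE 0.14, limma adjusted p = 3.23e-07), and 38 of the 11725 tested models fell further. By mean level 2969988 was at or above 95.0% of all 13602 models at 40 h and 47.3% at 96 h.

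Model 2907675 moved the other way. It stood at 2.03, 2.71 and 2.67 RPKM in the 40 h libraries and at 158, 143 and 258 RPKM in the 96 h libraries, in the order 1, 2 and 3. No library of one time came near those of the other, and library 3 was the highest at 96 h. Its mean went from 2.47 ± 0.381 to 187 ± 62.4 RPKM (SD, n = 3), 75.6-fold higher at 96 h. The log2 fold change was 5.71 (SE 0.21, limma adjusted p = 3.73e-07), and 19 tested models rose further. The gene moved from at or above 22.7% of all models at 40 h to 94.7% at 96 h. Both changes were larger than the spread between libraries and between lanes. Within a library the highest lane was at most 1.33 times the lowest for 2907675 and at most 1.10 times for 2969988.

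**Figure D1:**
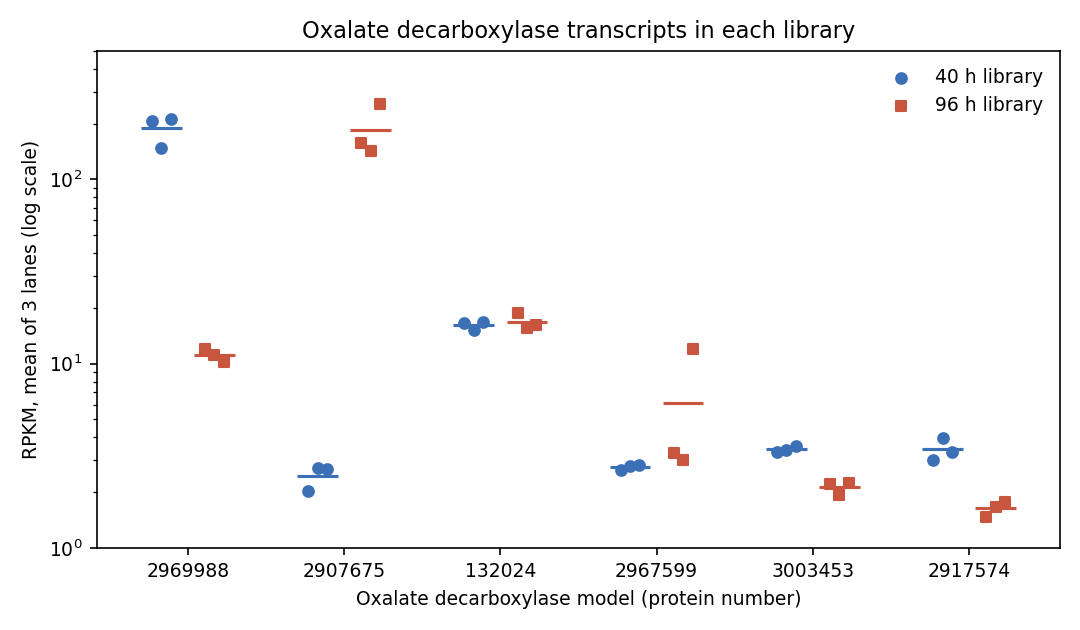
RPKM of the 6 oxalate decarboxylase models (horizontal axis, by protein number) in each library, on a log axis. Circles are 40 h libraries, squares 96 h libraries and bars the means of 3. Model 2969988 drops from 190.3 to 11.1 RPKM, 2907675 climbs from 2.47 to 187 RPKM, 132024 stays between 15.2 and 18.8 RPKM, and 1 library of 96 h is far above the others for 2967599.

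The 2 genes exchanged places as the main transcript, while the family total overlapped between the times. Of the summed RPKM of the 6 models, 2969988 made up 88.3%, 84.2% and 87.9% in the 40 h libraries and 6.10%, 6.32% and 3.39% in the 96 h libraries. The share of 2907675 was 0.858%, 1.53% and 1.10% at 40 h and 80.8%, 81.1% and 85.9% at 96 h. The leading model thus carried 86.8% ± 2.28 of the family's transcript at 40 h and 82.6% ± 2.85 at 96 h, as mean ± SD of 3 libraries. The sum itself was 236, 177 and 242 RPKM at 40 h and 196, 177 and 301 RPKM at 96 h. These ranges overlap, with means of 219 ± 36.0 and 225 ± 66.6 RPKM, a ratio of 1.03. As a part of the summed RPKM of all models the family took 0.0262% ± 0.00419 at 40 h and 0.0287% ± 0.00868 at 96 h. Models with a signal peptide held 90.9% ± 1.18 of the family's transcript at 40 h and 91.1% ± 2.44 at 96 h. Shares and sums over the members are given as descriptions, with no test.

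**Figure D2:**
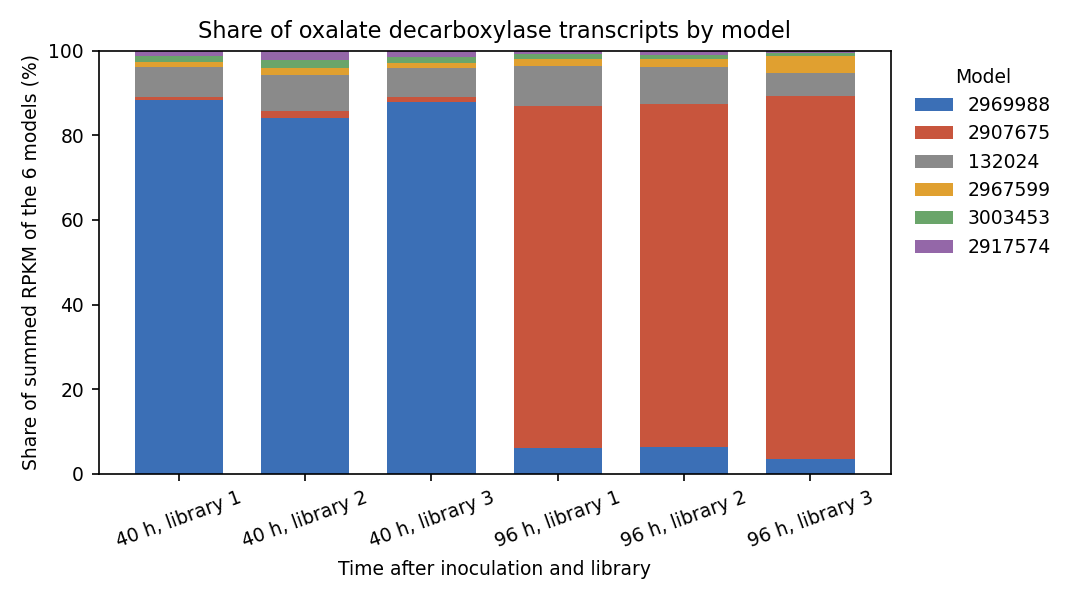
Share of the summed RPKM of the 6 oxalate decarboxylase models (vertical axis, %) taken by each model in each of the 6 libraries. Model 2969988 fills 84.2% to 88.3% of the 40 h bars and 2907675 fills 80.8% to 85.9% of the 96 h bars.

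Model 132024, with paired Cupin_2 domains and no listed signal peptide, was the second most abundant at both times. It stood at 16.7, 15.2 and 16.9 RPKM at 40 h and at 18.8, 15.6 and 16.2 RPKM at 96 h, so the groups overlap. The log2 fold change was 0.05 with a 95% confidence interval of -0.16 to 0.25 (limma adjusted p = 0.663). Its share of the family was 7.54% ± 0.907 at 40 h and 7.93% ± 2.23 at 96 h, and its mean was close to the median tested model at both times, 17.8 RPKM at 40 h and 17.4 RPKM at 96 h.

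Both remaining Cupin_1 models were low and fell. Model 2917574, which has a signal peptide, stood at 2.98, 3.96 and 3.32 RPKM at 40 h and at 1.47, 1.67 and 1.78 RPKM at 96 h. Model 3003453, which has none listed, stood at 3.31, 3.40 and 3.59 RPKM at 40 h and at 2.22, 1.94 and 2.25 RPKM at 96 h. In both genes every 96 h library lay below every 40 h library. The log2 fold changes were -0.74 (SE 0.10, limma adjusted p = 0.000380) for 2917574 and -0.50 (SE 0.08, limma adjusted p = 0.000728) for 3003453. These levels are close to the filter, where the pseudocount understates a change, and the ratio of means, 96 h over 40 h, was 0.479 for 2917574 and 0.622 for 3003453. Lanes of 1 library differed by up to 1.43 times for 2917574 and 1.54 times for 3003453, and with lane 1 alone 3003453 did not pass (log2 fold change -0.24, limma adjusted p = 0.104).

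Model 2967599, like 2907675 a Cupin_2 protein with a signal peptide, stood at 2.65, 2.77 and 2.82 RPKM at 40 h and at 3.27, 3.02 and 12.1 RPKM at 96 h. All 96 h libraries lay above all 40 h libraries, but library 3 of 96 h was 3.84 times the mean of the other two. The 3 lanes of that library gave 11.8, 12.0 and 12.4 RPKM, so the high value was not that of a single lane. With a log2 fold change of 0.70 and a 95% confidence interval of -0.24 to 1.64 the gene did not pass (limma adjusted p = 0.168). Without library 3 of 96 h the log2 fold change was 0.15 (limma adjusted p = 0.199), and without library 2 of 96 h it was 1.00 and passed (limma adjusted p = 0.0455).

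In all, 1 of the 6 models rose and 3 fell. Among all 11725 tested models 26.3% rose and 35.6% fell by the same rule, a limma adjusted p under 0.05 after Benjamini-Hochberg correction over all of them. The libraries of the times did not overlap for 5 of the 6 models, against 69.3% of all tested models. The family's median log2 fold change was -0.23, beside -0.08 over all tested models. Direction did not follow the signal peptide, since models with one included the rise of 2907675 and the falls of 2969988 and 2917574. All 3 Cupin_1 models fell, and of the 3 Cupin_2 models 1 rose and the other two did not pass.

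**Figure D3:**
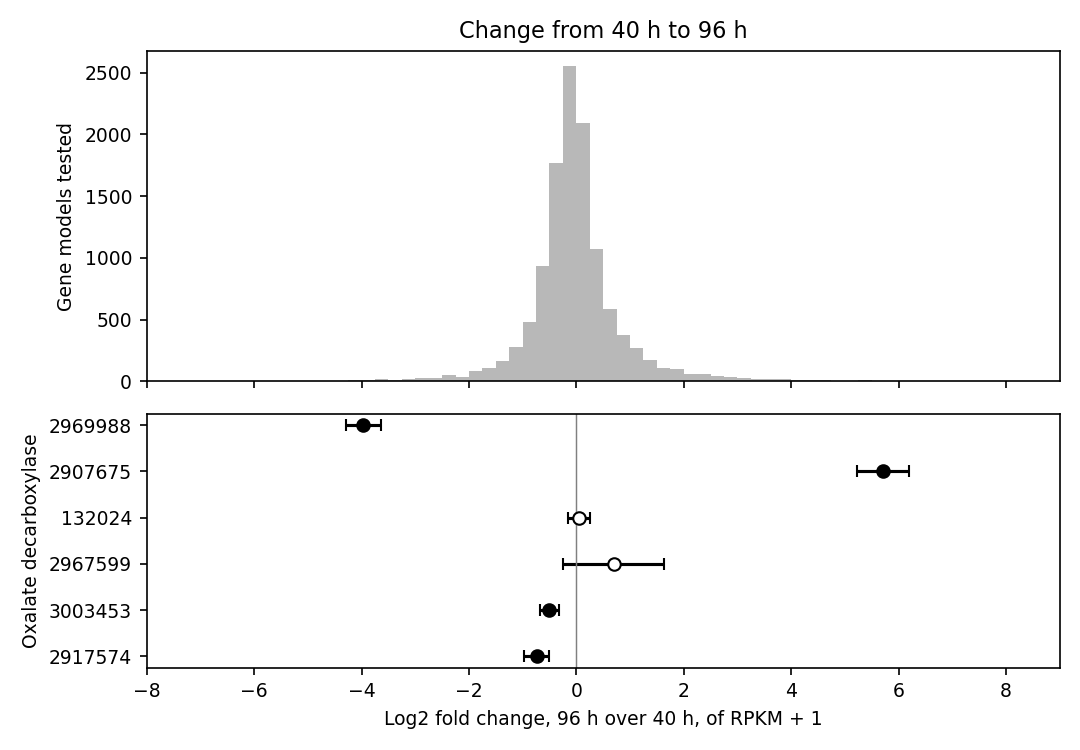
Log2 fold change of RPKM + 1, 96 h over 40 h. The upper panel counts all 11725 tested models in bins of 0.25, and the lower panel gives the 6 oxalate decarboxylases with 95% confidence intervals (n = 3 libraries at each time), filled where the adjusted p is below 0.05. Models 2907675, at 5.71, and 2969988, at -3.97, lie in the thin tails, and the other 4 lie within -0.74 to 0.70.

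The order of levels at 40 h was 2969988, 132024, 3003453, 2917574, 2967599 and 2907675. The first was 11.7 times the second and the second 4.74 times the third. Libraries of 3003453 and 2917574 overlapped, as did those of 2967599 and 2907675, so the ranges do not separate these neighbours. Within each 40 h library 2967599 was nonetheless above 2907675. At 96 h the order was 2907675, 132024, 2969988, 2967599, 3003453 and 2917574, with the first 11.1 times the second and 132024 1.52 times 2969988. Libraries of 2969988 and 2967599 overlapped there, through library 3 of 2967599. The gene with the lowest mean at 40 h, 2.47 RPKM beside 2.75 RPKM for 2967599, had the highest at 96 h, while the former leader ranked 3.

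Whether the paralogs differed in their response was tested on the log2 ratio of each pair within a library, an exact two-sided permutation test over 15 pairs. The log2 ratio of 2907675 to 2969988 was -5.77 ± 0.396 at 40 h and 3.91 ± 0.543 at 96 h (SD, 3 libraries each), a change of 9.68. That pair gave an exact p = 0.1, the smallest value that 3 against 3 libraries allow, and 0.107 after Benjamini-Hochberg adjustment over the pairs. The ratio separated the times in 14 of the 15 pairs, all with the same exact p = 0.1. The exception was 132024 against 2967599 (exact p = 0.2, change -0.65). Pairs share members, so they are not independent, and the same count over pairs of other models was not made. Of all tested models, 69.3% had libraries of the times that did not overlap, so the count of pairs is a description only. No pair could pass a threshold of 0.05 in this design.

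The means in the authors' deposited table are geometric over the 9 lane columns of a time, and so lie below the linear means given above where libraries differ. Model 2907675 has, in the authors' deposited table, means of 2.44 and 180.29 RPKM, a ratio of 73.9 and p = 2.81e-08, with the test not named. For 2967599 the authors' deposited table gives a 96 h mean of 4.92 RPKM, a ratio of 1.798 and p = 2.43e-05. The linear mean at 96 h was 6.12 RPKM and the ratio of linear means 2.23, and the limma fit over libraries gave an adjusted p = 0.168. The call for this gene thus differed between the authors' deposited table and the fit with libraries as replicates. The authors' deposited table and the fit gave the other 5 models the same side of 0.05, and 132024 had p = 0.477 in the authors' deposited table. Per the file headers the authors' p-value names no adjustment, while the limma p-values are adjusted over all tested models, so the measures are unlike.

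Oxalate is made in fungi from oxaloacetate or from glyoxylate, and of the 5 models listed for oxalate formation 4 fell and none rose, where 35.6% of all tested models fell and 26.3% rose. Model 3006287, annotated as carboxyphosphonoenolpyruvate phosphonomutase, belongs to the isocitrate lyase superfamily, which also holds the oxalate-forming oxaloacetate acetylhydrolase. It stood at 13987, 13892 and 16530 RPKM at 40 h and at 688, 697 and 433 RPKM at 96 h (log2 fold change -4.64, SE 0.20, limma adjusted p = 9.30e-07). Cytochrome b2 (3030467), of an enzyme family that includes glycolate oxidase, which can turn glyoxylate into oxalate, went from 5305 ± 514 to 84.2 ± 31.5 RPKM (log2 fold change -6.02). Isocitrate lyase (3004959), which makes glyoxylate, was at 2803 ± 462 RPKM at 40 h and 766 ± 150 RPKM at 96 h (log2 fold change -1.88). The low isocitrate lyase domain model 2960428 stood at 1.48, 1.27 and 1.56 RPKM at 40 h and at 0.134, 0.109 and 0.346 RPKM at 96 h. It met the filter through the 40 h libraries alone, so it had to differ and its fall is no support, and 3 of the other 4 models of the list fell. Model 3030826 did not pass, at 35.4 ± 3.36 and 36.2 ± 1.86 RPKM. At 40 h the levels of the first 3 of these genes were thus many times that of 2969988, the leading oxalate decarboxylase.

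Of 9 models that the text pattern matched for supply and use of oxaloacetate and glyoxylate, 3 rose and 4 fell. These shares are near the 26.3% and 35.6% of all tested models, so the count says nothing particular about the list. The list's median log2 fold change was -0.20, beside -0.08 over all tested models. It holds 5 isocitrate and isopropylmalate dehydrogenases, so neither the count nor the median describes the other models alone. Pyruvate carboxylase (2900690), which makes oxaloacetate from pyruvate, was at 3029 ± 222 RPKM at 40 h and at 246 ± 49.1 RPKM at 96 h (log2 fold change -3.63, SE 0.14, limma adjusted p = 5.77e-07). A lactate/malate dehydrogenase model (2966263) went from 800.4 ± 47.6 to 452 ± 15.5 RPKM, and the curated malate dehydrogenase (2910636) did not pass, at 1282 ± 132 and 1113 ± 77.0 RPKM (limma adjusted p = 0.152). Malate synthase (3010822), which consumes glyoxylate, went from 361 ± 59.6 to 545 ± 107 RPKM (limma adjusted p = 0.0195), with libraries of the times that overlap. It did not pass without library 1 or 2 of 40 h or library 3 of 96 h (limma adjusted p = 0.0748, 0.0684 and 0.0716), nor with no filter on low values (limma adjusted p = 0.0559). The other 5 models of this list are isocitrate and isopropylmalate dehydrogenases matched by a shared word in their domain name, with 2 higher and 2 lower.

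Enzymes for formate, the product of oxalate decarboxylase, were higher at 96 h. Formate dehydrogenase 3031669 stood at 358, 445 and 496 RPKM at 40 h and at 4885, 3279 and 5312 RPKM at 96 h. The times did not overlap, and the mean rose 10.4-fold (log2 fold change 3.36, SE 0.20, limma adjusted p = 4.75e-06). The second formate dehydrogenase, 2906482, went from 172 ± 45.8 to 405 ± 131 RPKM (log2 fold change 1.21, limma adjusted p = 0.00451). Formate transporter 2916576 went from 108 ± 3.18 to 356 ± 41.9 RPKM (log2 fold change 1.71, limma adjusted p = 3.44e-06). A further model curated as a formate transporter, 2916385, was missed by the text pattern, was added after its values were seen, and did not pass, at 2.35 ± 0.186 and 2.02 ± 0.186 RPKM.

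Manganese peroxidases, whose Mn(III) product is held in solution by oxalate, made up the other 5 models of the list for oxalate use and transport, and all 6 models of that list rose. They included MnP5 (2971944), from 15.7 ± 1.47 to 4801 ± 1732 RPKM, and mnp1 (8191), from 20.9 ± 2.21 to 5586 ± 1709 RPKM. MnP4 (2907883), at 3.83 ± 0.190 and 5.84 ± 1.05 RPKM, did not pass with lane 2 alone (log2 fold change 0.36, limma adjusted p = 0.0983). Over the pathway lists together 11 of 22 models rose and 8 fell, 2960428 among them, beside 26.3% and 35.6% of all tested models. The 22 include the 5 isocitrate and isopropylmalate dehydrogenases matched only by a shared word. This total is therefore not one of oxalate and formate genes alone.

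**Figure D4:**
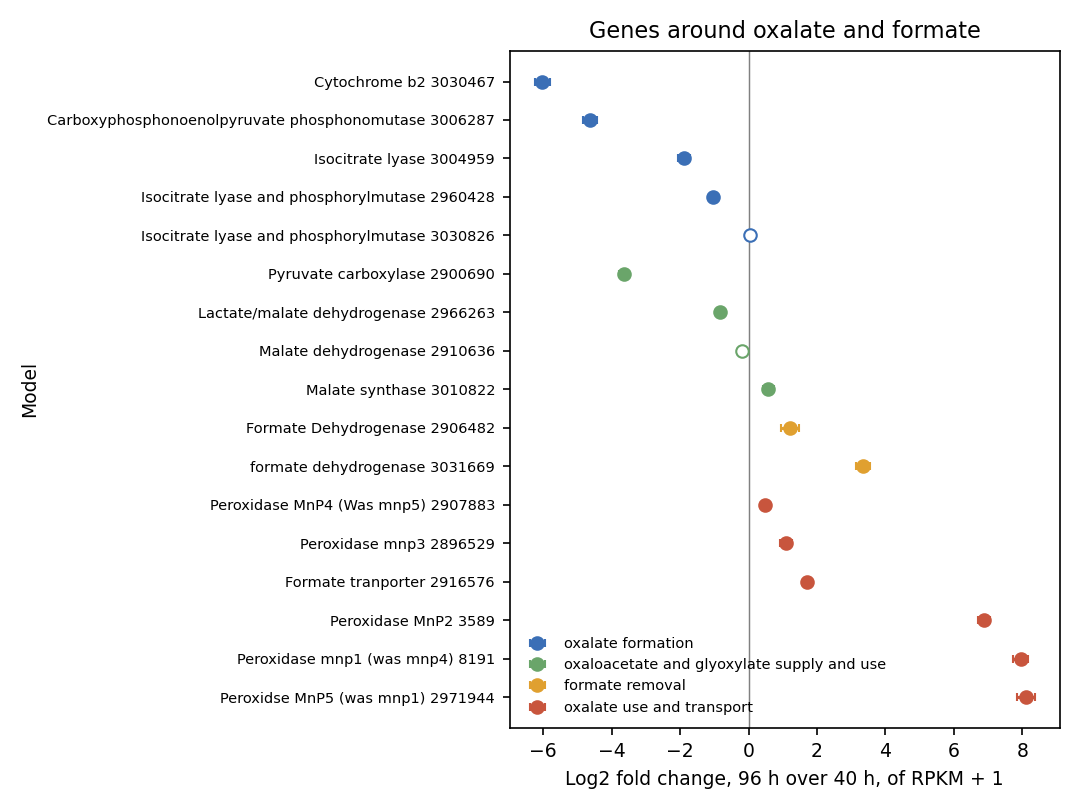
Log2 fold change of RPKM + 1, 96 h over 40 h, with its SE, for the genes around oxalate and formate (named as in the table, colours by list, n = 3 libraries at each time), without the 5 isocitrate and isopropylmalate dehydrogenases. Filled points have an adjusted p below 0.05. Models that the text pattern listed for oxalate formation reach -6.02 (cytochrome b2, 3030467), and none of them is annotated as forming oxalate. Both formate dehydrogenases lie at 1.21 and 3.36, and the manganese peroxidases extend to 8.09.

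Cupin proteins that are not curated as oxalate decarboxylase changed less than the pair of leading models, but that pair was picked by its levels in these data. The 8 other cupins had log2 fold changes within -1.16 to 0.18, and the other 4 oxalate decarboxylases within -0.74 to 0.70. Of the 8 other cupins 6 fell and none rose, where 35.6% of all tested models fell and 26.3% rose. Their median log2 fold change was -0.44, beside -0.08 over all tested models. Spherulin (2897528) was at 9.91 ± 3.24 RPKM at 40 h and 4.70 ± 0.376 RPKM at 96 h (log2 fold change -0.90). Model 2967529, the most abundant of them, went from 129 ± 6.34 to 57.3 ± 9.07 RPKM, a log2 fold change of -1.16. The other 4 that fell had log2 fold changes between -0.57 and -0.24. None of these 8 was named in the table as acting on oxalate.

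The genes most like each leading paralog were found among 6289 tested models with an annotated function. The measure was the root mean square difference between log2(RPKM + 1) profiles over the 6 libraries, each centred on its own mean. For 2907675 the nearest were a GDSL lipase of carbohydrate esterase family 16 (3038104) at 0.276, the major facilitator transporters 3023711 at 0.300 and 3025694 at 0.329, lignin peroxidase LiPA (2989894) at 0.342 and a methanol oxidase (3004321) at 0.352. The esterase went from 2.47 ± 0.202 to 242 ± 34.1 RPKM, a range close to that of 2907675. For 2969988 the nearest were a bisphosphate nucleotidase (2918498) at 0.171, a model with a carbohydrate-binding WSC domain (3027616) at 0.181, a family GH13 alpha amylase (3001496) at 0.183, a class 3 lipase (3024680) at 0.195 and a zinc finger model (2980748) at 0.199. The amylase fell from 2309 ± 32.7 to 140.3 ± 16.6 RPKM. No annotated model lay within 0.25 of 2907675, and 11 lay within 0.25 of 2969988. The contrast of the times dominates these profiles, and likeness over 6 libraries is a description only.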

How the data were processed

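The authors deposited RPKM values for 13602 gene models in 18 columns, 1 per library and lane, and per the file headers also mean RPKM per time, their ratio, a p-value and a t statistic (a score here). Per the file headers a further column gives a signal peptide probability, a fraction. CASAVA 1.8.2 is named in the submitters' processing notes. Not given in the sources used here were the aligner, the counter, the genome build and the gene annotation. Read totals are not given, so the depth is unknown and no counting interval was formed.

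The 3 lanes of a library, identified by barcode number, were averaged on the linear scale. Nothing in the labels says that the section pools came from separate cultures, so p-values cover only the spread among these samples, which may be technical. The 11725 models that reached 1 RPKM in 3 or more libraries were fitted as log2(RPKM + 1) with limma 3.58.1 in R 4.3.3 (variance trend, no block), with Benjamini-Hochberg adjustment over all of them and a threshold of 0.05. The fit was run on simulated data with few changed models and independent noise, which checks the code and not the calls made here. Correlations between libraries of a time were 0.996 to 0.997 at 40 h and 0.984 to 0.995 at 96 h. Exact permutation tests used Python 3.11.15.

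The members, lists and tests were chosen with earlier results of these data known. Named are all members, the listed pathway genes described, and the 5 annotated models most like each of 2907675 and 2969988. Those members alone passed with a change of at least 2-fold on the log2(RPKM + 1) scale. Pathway lists were text patterns on the annotation. Alternatives were the pseudocount, filter, scaling, variance trend, each library or lane, the lane average and 2 replicate blocks.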

Additional observations from a re-analysis of the deposited data

How the results depend on the processing

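Over 19 alternative fits, 107 of 111 log2 fold changes of the members kept their direction and their side of the threshold. That of 2907675 ranged from 4.64 to 6.15 and that of 2969988 from -4.13 to -3.58. Leaving out 1 library at a time, 132024, which passed under no alternative, ranged from -0.0286 to 0.10, 2967599 ranged from 0.15 to 1.00 and passed without library 2 of 96 h, and the number of members that rose was 1 to 2. With lane 1 alone 132024 was at -0.0170 and 3003453 at -0.24, no longer past the threshold. With a filter of 5 RPKM the 3 lowest members were not tested, and 1 member fell in place of 3. The pathway model 3030826, which did not pass, turned to -0.0017 with quantile normalization and ranged from -0.0374 to 0.10 with single libraries left out. The cause of these shifts was not tested. Of 416 alternative values of pathway models 407 kept direction and side.

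The replicate numbers are not stated to pair the samples, so the main fit had no block. Deviations from the time mean had correlations of 0.136, 0.133 and -0.102 between samples with the same barcode number. With the same pool number they were 0.218, -0.097 and 0.076. Mismatched numbers were not compared and each time has 3 libraries, so these values cannot decide on a pairing. With a replicate block by barcode number 1 member rose and 3 fell, as with a block by pool number, and 7121 and 7024 of 11725 models were called, beside 7267 without a block. Low members may rest on few reads, in a number that is not known.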

Other observations

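In library 3 of 96 h, 2 oxalate decarboxylases and 1 formate dehydrogenase were among the 19 models furthest above the other 96 h libraries. This was looked for after the values of 2967599 were seen, so the rank of that model is no support. The observation rests on 1 library. For each of the 11725 tested models the log2(RPKM + 1) value in that library was set against the higher of the other two 96 h libraries. The oxalate decarboxylase 2967599 had the highest excess of all models, 1.61, and 2907675 ranked 5, at 0.70. Formate dehydrogenase 2906482, at 374, 291 and 549 RPKM in the 96 h libraries 1, 2 and 3, ranked 14, at 0.55, and formate dehydrogenase 3031669 ranked 386, at 0.12. An excess of at least 0.5 was found for 19 models in library 3, 120 in library 1 and 148 in library 2. The other 4 oxalate decarboxylases had excesses of -0.21 to 0.06 in library 3.

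The t statistic in the authors' deposited table was compared with one computed from log2 RPKM of 12385 models with reads in every lane. With lanes as the units, each of the 3 lane numbers was first averaged over the libraries of a time. The spread between libraries thus does not enter that statistic. Its median absolute difference from the deposited value was 0.694, and with libraries as the units the difference was 6.83. The median absolute t was 11.4 in the authors' deposited table, 11.4 over lanes and 3.76 over libraries. For 2969988 the authors' deposited table gives -383, and for 2967599 it gives 19.9. The deposited means differed from the geometric mean over the 9 lane columns of a time by a median of 0.00133% at 40 h and at 96 h.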
